A study of Mus musculus with 4 samples.

Results

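Bone morphogenetic protein (BMP) ligands, antagonists, receptors and readouts were followed across the cell types of the bone metaphysis after deletion of Lats2 in the endothelium. The set was 10 genes chosen by symbol, out of 53703 genes counted: the ligands Bmp2, Bmp4 and Bmp6, the secreted antagonists Grem1 and Chrdl1, the receptors Bmpr1a, Bmpr1b and Bmpr2, and Id1 and Smad6 as readouts of signalling. All 10 were found in every library, and none was used to sort the cells into types.

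BMPs are secreted dimers that bind pairs of type I and type II receptor kinases at the cell surface. The activated receptors phosphorylate SMAD1, SMAD5 and SMAD9, which enter the nucleus with SMAD4 and switch on target genes such as Id1 and the feedback inhibitor Smad6, while antagonists such as gremlin and the chordin family hold the ligands away from their receptors. In bone the pathway is known for driving osteoblast formation and the maturation of growth plate cartilage.

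The 4 droplet-based single-cell RNA-seq libraries came from non-hematopoietic cells of the metaphysis of femur and tibia of mice at post-natal week 12, with 2 libraries per genotype. Mutants (genotype label Lats2iECKO, treatment label "conditional Lats2 KO") carried loxP-flanked Lats2 alleles and the tamoxifen-inducible Cdh5(PAC)-CreERT2 transgene, whose promoter is active in endothelial cells. Controls (genotype label control, treatment label "untreated") were Cre-negative littermates which, per the methods of the study, received the same tamoxifen as juveniles, so that the groups differ in Cre. The background was C57/BL6 and both sexes were used, and cells had been depleted of lineage-positive, CD45+ and CD117+ cells with magnetic beads. The sources used here do not give the number of animals behind a library, so p-values measure the spread between these libraries. The smallest p of an exact permutation test over these 4 libraries is 0.333, so the tests below come from a model fitted across all genes.

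Values are unique molecular identifiers (UMIs) summed over the cells of one class in one library and given as CPM, a gene's UMIs scaled by the total of that sum. They are 3′ tag counts, so levels are compared between cell classes for the same gene and never between genes. Barcodes with at least 1000 UMIs and 800 genes were assigned from 8 markers per main list (a cell needs 3 detected and a lead of 2 over the next list), which gave endothelial-like cells (EC; 512 to 800 cells per library), osteoblast-like cells (OB; 111 to 599), chondrocyte-like cells (CHO; 1442 to 2303), smooth muscle-like cells (SMC; 234 to 438) and fibroblast-like cells (FB; 79 to 106). Bone marrow stromal-like cells could also be gated on 6 metaphyseal stromal markers in place of their 8. They were divided by 6 markers per list, some of them also in the stromal list. This gave a diaphyseal, Lepr and Adipoq-rich class (dpMSC, 543 to 1822 cells per library) and a metaphyseal, Postn and Wif1-rich class (mpMSC, 78 to 321). In the same way ECs gave arterial-like (aEC), sinusoidal bone marrow-like (bmEC) and metaphyseal (mpEC) cells, and CHOs gave hypertrophic-like (HCHO), columnar-like (CCHO) and resting or articular-like (RCHO) cells. A difference was called at a Benjamini-Hochberg adjusted p of at most 0.05 in edgeR's quasi-likelihood test over all genes tested in the class, and fold changes are mutant over control on the log2 scale with their standard error (SE).

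The 4 libraries held 69636600 to 85899079 UMIs and 5119 to 6813 barcodes after all filters, and any pair of libraries shared 6 to 16 of these barcodes where list size alone gives 4.435 to 6.798. In CHOs, where this was checked, the replicates of each genotype differed beyond sampling noise. Free RNA, estimated from near-empty droplets, made up 1.54% to 7.43% of the UMIs of a class. Cre-ERT2 was read at 52.6 and 49.3 against 0.691 and 0.888 CPM in ECs of mutants and controls. Lats2 in ECs was at 90.1 and 96.1 against 134 and 119.5 CPM (log2 fold change -0.36 ± 0.082 SE, adjusted p = 0.0065). Where the tags lie relative to the deleted segment is not given in the sources used here, so these counts do not check the deletion. The study itself reports a strong loss of endothelial Lats2 transcript and of LATS2 protein by immunostaining in the mutants.

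Cell makeup moved with genotype in ECs and CHOs, and the pooled level of the class's own markers moved in SMCs and CHOs. Of the ECs, bmECs made up 12.9% and 11.6% in the mutant libraries and 25.5% and 27.2% in the controls. Of the CHOs, CCHOs made up 6.84% and 7.16% in the mutant libraries and 17.5% and 16.4% in the controls, and RCHOs made up 25.0% and 26.5% in the mutant libraries and 18.8% and 20.7% in the controls. HCHOs made up 44.6% and 41.4% in the mutant libraries and 37.4% and 34.6% in the controls. With Leiden clusters the bmEC and CCHO shares were again lower in both mutant libraries and the HCHO share again higher (994 of 2351 and 1041 of 2603 CHOs against 282 of 1600 and 266 of 1646). The aEC share was again higher too (31.9% and 30.7% against 26.9% and 25.2%), and the mpEC share was higher in mutants by cluster (56.6% and 59.7% against 48.2% and 47.9%). The RCHO share then overlapped between genotypes (471 of 2351 and 567 of 2603 CHOs in the mutant libraries and 343 of 1600 and 372 of 1646 in the controls). The 8 SMC markers summed to 11030 and 11450 CPM in the mutant libraries and 22010 and 22760 CPM in the controls within SMCs, and the smooth muscle myosin gene Myh11 stood at 1091 and 1162 against 3478 and 3742 CPM. The 8 CHO markers summed to 12030 and 11400 CPM in the mutant libraries and 18870 and 18530 CPM in the controls within CHOs. None of the listed SMC or CHO markers was at 0 in its own class, and the part of these shifts in the results was not tested.

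In the mutants, the ligand genes Bmp4 and Bmp6 rose in ECs, the antagonist Grem1 and the ligands Bmp2 and Bmp6 rose in CHOs while Chrdl1 fell there, Grem1 and Smad6 fell in mpMSCs, and Id1 rose in dpMSCs. Over the 7 main classes, 62 of the 70 pairs of a member and a class passed the filter on low counts, and 24 were called, 13 higher and 11 lower in mutants. Bmp2, Bmp4, Bmpr2 and Id1 were called in the higher direction alone, Chrdl1, Bmpr1a and Bmpr1b in the lower direction alone, and Bmp6, Grem1 and Smad6 in both directions in different classes. In ECs 3 of 9 tested members were called, beside 34.4% of all genes tested there (17.8% higher, 16.5% lower). In dpMSCs it was 4 of 9, beside 20.3% (11.0% higher, 9.35% lower), and in mpMSCs 3 of 9, beside 7.59% (4.8% higher, 2.8% lower). OBs had 1 of 8 called, beside 4.41% (3.51% higher, 0.901% lower). CHOs had 9 of 10 called, 6 higher and 3 lower, beside 45.1% (22.8% higher, 22.3% lower). SMCs had 4 of 8 called, beside 29.4% (15.5% higher, 13.9% lower). FBs had 0 of 9 called with edgeR and with DESeq2, beside 0.675% (0.431% higher, 0.244% lower), and 2 members there, Bmp4 and Chrdl1, had an unadjusted p under 0.05 (0.0041 and 0.012). The share of members called was close to that of all genes in ECs and higher in dpMSCs, mpMSCs, OBs, CHOs and SMCs, on 8 to 10 tested members a class, and this difference was not tested. The members were chosen with earlier results of these data known, so these shares cannot show that the set stands out.

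**Figure D1:**
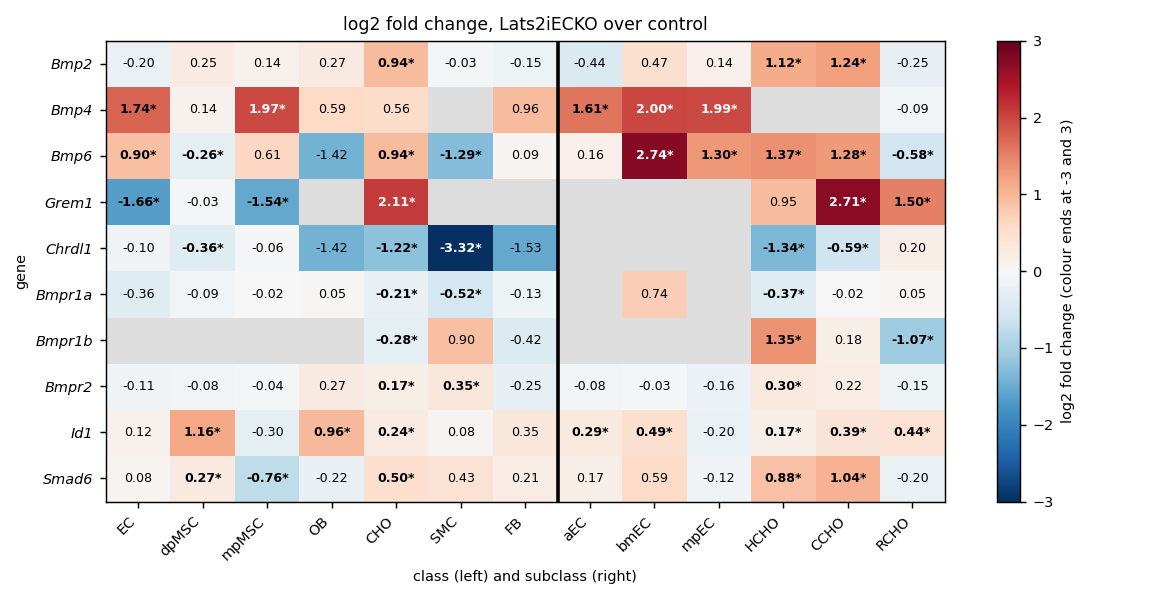
Grid of log2 fold changes, Lats2iECKO over control, with the 10 members as rows and the main classes (left) and subclasses (right) as columns; colour runs from blue (lower in mutants) to red (higher), stars mark called values and grey cells were not tested. Bmp4 reads 1.74 in ECs and Grem1 at 2.11 in CHOs and -1.54 in mpMSCs.

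On the GRCm39 genome the files were counted on, the ligand genes are Bmp2 (ENSMUSG00000027358, plus strand of chromosome 2, 133394079 to 133404816), Bmp4 (ENSMUSG00000021835, minus strand of chromosome 14, 46620250 to 46636745) and Bmp6 (ENSMUSG00000039004, plus strand of chromosome 13, 38529065 to 38684280). Bmp4, a ligand needed for mesoderm and vessel development and a strong inducer of bone, was highest in control dpMSCs, at 133 ± 1.98 CPM (mean ± SD, n = 2), far over bmECs (23.9 ± 3.15) and FBs (23.4 ± 1.09), which overlapped each other. In ECs Bmp4 was at 74.2 and 68.4 CPM in the mutant libraries and 21.4 and 23.6 CPM in the controls. Both mutant libraries lay above both controls, and Bmp4 rose (log2 fold change 1.74 ± 0.10 SE, adjusted p = 1.5e-06), from 364 and 399 UMIs in the mutant libraries and 124 and 133 in the controls. By subclass, in bmECs Bmp4 stood at 104 and 80.5 against 21.6 and 26.1 CPM in mutants and controls (2.00 ± 0.22, adjusted p = 1.9e-04). In mpECs it was 64.4 and 61.4 against 19.3 and 14.0 CPM (1.99 ± 0.20, adjusted p = 1.0e-04). In aECs it was lower in both genotypes, 21.2 and 26.3 against 5.72 and 11.1 CPM (1.61 ± 0.40, adjusted p = 0.011), and without control library 1 the call was lost (1.20, adjusted p = 0.087), as it was without mutant library 2 (1.44, adjusted p = 0.060) and with DESeq2 (adjusted p = 0.17). With aECs taken from Leiden clusters the value fell to 0.12, adjusted p = 0.84. The EC, bmEC and mpEC calls held without any 1 library, with Leiden clusters in place of marker gates and with free RNA subtracted (1.75 in ECs). Since dpMSCs are the richest source of Bmp4 UMIs, the 6 dpMSC markers were summed in ECs: 787 and 767 CPM in the mutant libraries and 544 and 534 CPM in the controls, with none at 0, and 13380 and 13180 CPM in the mutant libraries and 13120 and 13160 CPM in the controls in dpMSCs themselves. They were higher in mutants in bmECs (498 and 312 CPM in the mutant libraries and 148 and 168 CPM in the controls) and in mpECs (1089 and 957 CPM in the mutant libraries and 607 and 582 CPM in the controls). They were lower in mutants in aECs (726 and 786 CPM in the mutant libraries and 1029 and 966 CPM in the controls). The 8 bone marrow stromal markers, which include all of these 6 but Lpl, summed in ECs to 1376 and 1330 CPM in the mutant libraries and 1211 and 1183 CPM in the controls. They overlapped in bmECs (745 and 397 against 311 and 425 CPM). In mpECs they were higher in mutants and in aECs lower. The part of either list in the Bmp4 values was not tested.

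Outside ECs, Bmp4 in dpMSCs was 136 and 149 against 132 and 135 CPM, with mutant libraries above the controls by a margin that did not pass (0.14 ± 0.063, adjusted p = 0.15). In mpMSCs it rose from a low level, 18.7 and 18.2 against 5.16 and 4.44 CPM (1.97 ± 0.42, adjusted p = 0.0068), on 12 and 13 UMIs in the mutant libraries and 14 and 12 in the controls. That call was lost without control library 1 (2.06, adjusted p = 0.31) or 2 (1.86, adjusted p = 0.39) and without the low-count filter (adjusted p = 0.13), and DESeq2 gave it no adjusted p. Without the low-count filter, 9 genes were called higher and 9 lower in mpMSCs, of 23029 tested. FBs had 43.9 and 42.7 against 22.6 and 24.2 CPM (0.96 ± 0.27, adjusted p = 0.16), without overlap but not called. In CHOs and SMCs Bmp4 stayed below 3 CPM in every library.

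Bmp6, a ligand known from liver endothelium as a regulator of iron and also expressed in hypertrophic cartilage, had its highest control level in dpMSCs (1247 ± 38.0 CPM), then aECs (421 ± 4.79) and RCHOs (262 ± 23.7), and these classes did not overlap. In ECs Bmp6 was at 207 and 177 CPM in the mutant libraries and 112 and 105 CPM in the controls, without overlap, and rose (log2 fold change 0.90 ± 0.085 SE, adjusted p = 3.8e-05). The subclasses differed in what they showed. In bmECs Bmp6 stood at 70.9 and 67.1 against 10.5 and 10.9 CPM (2.74 ± 0.24, adjusted p = 4.6e-05), called in every setting run, with values from 1.02 with Leiden clusters to 3.65 with free RNA subtracted. Some marker lists of other classes were also higher in mutant bmECs, the dpMSC markers given above among them, and others were not. The 6 RCHO markers summed to 1603 and 1506 CPM in the mutant libraries and 189 and 151 CPM in the controls, with none at 0. The 6 HCHO markers summed to 275 and 272 CPM in the mutant libraries and 51.9 and 62.5 CPM in the controls, with at most 2 at 0 in a library. In bmECs the OB markers (86.6 and 34.65 against 574 and 394 CPM) and SMC markers (914 and 1086 against 1276 and 1325 CPM) were lower in mutants. So were the mpMSC markers (275 and 284 against 536 and 620 CPM). The 8 CHO markers (149 and 373 against 111 and 176 CPM) and the 8 bone marrow stromal markers (745 and 397 against 311 and 425 CPM) overlapped. The part of these lists in the Bmp6 rise was not tested. In mpECs Bmp6 was 135 and 89.1 against 43.5 and 51.6 CPM (1.30 ± 0.20, adjusted p = 0.0015). The HCHO markers were higher in mutants there too (362 and 90.1 against 39.6 and 58.3 CPM), and in ECs as a whole (214 and 171 against 45.6 and 60.4 CPM). The CHO and RCHO markers overlapped in both. The part of these lists was not tested. In aECs, the EC subclass with the highest Bmp6 level, the libraries overlapped at 474 and 411 against 424 and 418 CPM (0.16 ± 0.10, adjusted p = 0.35). The difference between EC subclasses was not itself tested. The pooled EC value of Bmp6 also carries the shifts in aEC and bmEC share given above, whose part was not tested.

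In CHOs Bmp6 was at 163 and 166 CPM in the mutant libraries and 83.0 and 93.5 CPM in the controls, and rose (log2 fold change 0.94 ± 0.058 SE, adjusted p = 3.6e-07). In HCHOs, the enlarged cells of the growth plate that precede bone, it rose at 212 and 229 against 68.5 and 109 CPM (1.37 ± 0.15, adjusted p = 5.0e-05). The HCHO call was made in each of the 15 settings run, with values from 0.73 to 1.76. It rose in CCHOs as well, at 52.9 and 35.0 against 22.6 and 15.7 CPM (1.28 ± 0.23, adjusted p = 0.0038), a call lost without mutant library 1 (0.96, adjusted p = 0.053). In RCHOs the direction was the opposite, with Bmp6 at 187 and 153 against 279 and 245 CPM, a fall by 0.58 on the log2 scale (SE 0.10, adjusted p = 0.0070). So the ordering of chondrocyte subclasses by Bmp6 changed, from RCHO above HCHO in both control libraries to HCHO above RCHO in both mutant libraries.

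Bmp6 fell slightly in dpMSCs, at 996 and 1033 against 1274 and 1220.2 CPM (-0.26 ± 0.047, adjusted p = 0.0035), with no overlap, although with dpMSCs taken from Leiden clusters the value was -0.046, adjusted p = 0.62. In SMCs it was 23.1 and 35.1 against 68.3 and 79.6 CPM, lower in both mutant libraries (-1.29 ± 0.19, adjusted p = 2.1e-04). The SMC call was lost without mutant library 1 (-1.03, adjusted p = 0.12) or 2 (-1.63, adjusted p = 0.12). In those 2 fits, with 1 mutant library left, edgeR called 0 of 11064 and 0 of 11038 genes (3025 and 2922 at an unadjusted p under 0.05), so the losses in SMCs are not particular to the members. In mpMSCs the mutant libraries disagreed, at 57.8 and 155 against 70.8 and 75.9 CPM (0.61 ± 0.25, adjusted p = 0.18), and in FBs they overlapped the controls at 62.5 and 103 against 101 and 64.1 CPM. OBs held little Bmp6, at 1.35 and 0.901 against 3.68 and 2.17 CPM.

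Bmp2, the ligand used clinically to induce bone, was highest in control RCHOs (196 ± 38.7 CPM), followed by HCHOs (94.3 ± 31.6) and SMCs (82.0 ± 6.91), which overlapped. In CHOs Bmp2 was at 145 and 149.7 CPM in the mutant libraries and 72.6 and 85.3 CPM in the controls, and rose (log2 fold change 0.94 ± 0.068 SE, adjusted p = 1.2e-06) without overlap. HCHOs showed it at 195 and 198 against 72.0 and 117 CPM (1.12 ± 0.16, adjusted p = 2.6e-04), and CCHOs at 32.5 and 24.4 against 14.2 and 11.4 CPM (1.24 ± 0.22, adjusted p = 0.0034), the latter lost without mutant library 1 (1.02, adjusted p = 0.051). The HCHO call was made in each of the 15 settings run, with values from 0.59 to 1.52. RCHOs had lower mutant values, 155 and 163 against 224 and 169 CPM, a difference that did not pass (-0.25 ± 0.11, adjusted p = 0.22). Bmp2 was called in no other main class, with fold changes from -0.20 in ECs to 0.27 in OBs.

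**Figure D2:**
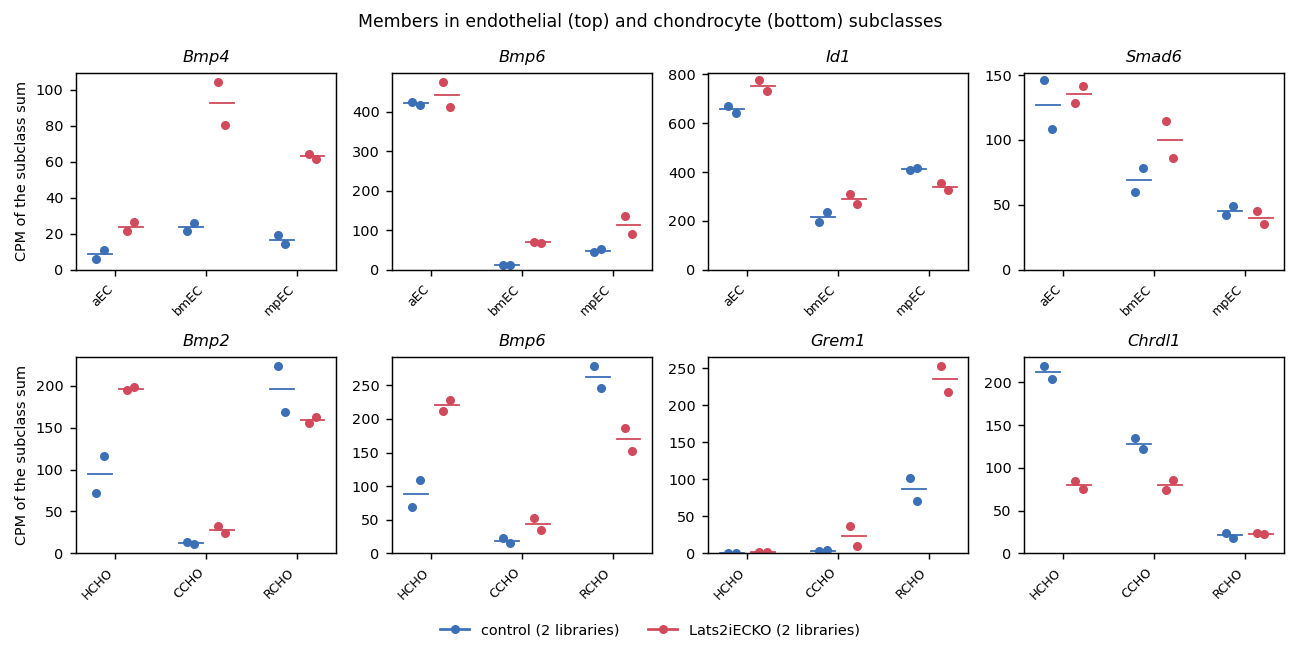
Level in CPM of the subclass sum (linear axis from 0) of Bmp4, Bmp6, Id1 and Smad6 in EC subclasses (top) and of Bmp2, Bmp6, Grem1 and Chrdl1 in CHO subclasses (bottom), with 1 point per library and a line at the mean of each genotype. Bmp6 in bmECs sits at 70.9 and 67.1 CPM in mutants against 10.5 and 10.9 in controls, while in aECs the 2 genotypes overlap.

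The 2 ligands that rose together in ECs have promoters that can be read beside each other. RefSeq's table on GRCm38.p6, an earlier build than that of the counts, gave promoters for 7 of the 10 members (250 bases before to 50 after the start), and the entries for Bmp4 (chr14:46390620-46390919, minus strand) and Bmp6 (chr13:38345466-38345765, plus strand) are printed 5′ to 3′ on the gene's strand, with matches to the SMAD half-site GTCT or its complement AGAC in capitals.
Bmp4: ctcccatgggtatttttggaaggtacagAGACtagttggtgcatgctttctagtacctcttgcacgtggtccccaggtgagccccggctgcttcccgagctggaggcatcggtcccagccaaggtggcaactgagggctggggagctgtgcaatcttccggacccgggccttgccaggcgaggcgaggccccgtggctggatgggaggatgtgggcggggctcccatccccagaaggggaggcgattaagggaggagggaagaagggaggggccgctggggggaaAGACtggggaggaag
Bmp6: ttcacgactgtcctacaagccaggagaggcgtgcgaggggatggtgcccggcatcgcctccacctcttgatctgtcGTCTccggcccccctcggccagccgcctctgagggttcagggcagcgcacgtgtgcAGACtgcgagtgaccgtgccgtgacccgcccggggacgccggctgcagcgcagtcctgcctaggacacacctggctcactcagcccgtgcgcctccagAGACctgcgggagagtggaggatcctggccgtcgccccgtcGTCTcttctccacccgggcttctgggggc
Bmp4 holds 2 matches and Bmp6 holds 4, and 88.0% of 32851 promoters of the same length hold at least 1. GGCGCC, a GC-rich SMAD1 and SMAD5 element searched on both strands, is in neither window and in 11.9% of all promoters. GGAATG or its complement CATTCC, the TEAD-type element, is in 14.7% of all promoters and in 0 of the 7 members' windows. A match is a string of letters and not a binding site, and the missing strings say nothing about a factor.

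The antagonists are Grem1 (ENSMUSG00000074934, minus strand of chromosome 2, 113576509 to 113589000) and Chrdl1 (ENSMUSG00000031283, minus strand of chromosome X, 142068670 to 142177258). Grem1, which encodes gremlin 1, a secreted cystine-knot protein that binds BMP2, BMP4 and BMP7 and marks skeletal progenitors, was highest in control dpMSCs (318 ± 33.1 CPM), followed by mpMSCs (99.8 ± 4.98) and RCHOs (86.2 ± 22.5), whose controls overlapped. In the remaining 8 classes the control mean was below 5 CPM. In CHOs Grem1 was at 65.2 and 60.4 CPM in the mutant libraries and 16.0 and 14.2 CPM in the controls, and rose (log2 fold change 2.11 ± 0.071 SE, adjusted p = 4.5e-09). RCHOs, which hold most Grem1 among the chondrocytes, showed it at 252 and 218 against 102 and 70.3 CPM (1.50 ± 0.14, adjusted p = 1.9e-04). In CCHOs it stood at 36.5 and 10.6 against 2.90 and 4.57 CPM (2.71 ± 0.54, adjusted p = 0.0069), where mutant library 1 carried the higher value and the call was lost without it (1.58, adjusted p = 0.067). Over the alternative settings the CCHO value went from 0.95 to 3.82. HCHOs had under 3 CPM in every library, with no call (0.95 ± 0.39, adjusted p = 0.074).

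In mpMSCs Grem1 moved the other way. It was at 32.8 and 33.5 CPM in the mutant libraries and 96.3 and 103 CPM in the controls, with no overlap (log2 fold change -1.54 ± 0.19 SE, adjusted p = 5.2e-05), and the call held without any 1 library and was lost without the filter on low counts (adjusted p = 0.058). Without that filter only 9 genes were called higher and 9 lower in the class, of 23029 tested. The 8 OB markers in mpMSCs summed to 795 and 822 CPM in the mutant libraries and 2178 and 2409 CPM in the controls, with at most 1 at 0 in a library. Their part in the Grem1 fall was not tested. In dpMSCs, where its level was highest, Grem1 overlapped at 310.4 and 298 against 341 and 294 CPM (-0.026 ± 0.073, adjusted p = 0.84). In ECs it was near the limit of detection, 1.02 and 0.857 against 3.11 and 3.20 CPM, or 5 and 5 UMIs in the mutant libraries and 18 and 18 in the controls, and the call of a fall (-1.66 ± 0.43, adjusted p = 0.014) was lost with DESeq2 (adjusted p = 0.21) and without each of the 4 libraries (adjusted p from 0.052 to 0.098).

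Chrdl1, chordin-like 1, a secreted BMP-binding protein with chordin-type repeats, was highest in control dpMSCs (909.9 ± 22.9 CPM), then HCHOs (212 ± 10.9) and CCHOs (128 ± 9.62), without overlap between these. In CHOs Chrdl1 was at 66.0 and 60.0 CPM in the mutant libraries and 159 and 144 CPM in the controls, and fell (log2 fold change -1.22 ± 0.059 SE, adjusted p = 5.2e-08). HCHOs showed the larger fall, 84.7 and 75.1 against 219.6 and 204 CPM (-1.34 ± 0.068, adjusted p = 1.7e-07). CCHOs fell from a lower start, 73.8 and 86.0 against 135 and 122 CPM (-0.59 ± 0.11, adjusted p = 0.0053), and RCHOs overlapped at 23.8 and 22.5 against 23.3 and 18.6 CPM (0.20 ± 0.15, adjusted p = 0.50). The CCHO calls depend on the filter on low counts: without it none of the 6 members called there (Bmp2, Bmp6, Grem1, Chrdl1, Id1 and Smad6) was called (adjusted p = 0.073 for Chrdl1 and 0.18 for Grem1). With DESeq2 Grem1 in CCHOs was not called either (adjusted p = 0.050).

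In SMCs Chrdl1 was at 4.46 and 2.92 CPM in the mutant libraries and 34.5 and 40.5 CPM in the controls (log2 fold change -3.32 ± 0.28 SE, adjusted p = 2.2e-06), the largest fold change among the tested pairs of a member and a main class. The call was lost without mutant library 1 (-3.61, adjusted p = 0.10) or 2 (-3.04, adjusted p = 0.12), as every call in SMCs was, and Chrdl1 in near-empty droplets stood at 61.2 and 71.4 CPM in the mutant libraries and 160.1 and 159 CPM in the controls. The 6 markers of dpMSCs, the class richest in Chrdl1, summed in SMCs to 1921 and 2336 CPM in the mutant libraries and 829 and 838 CPM in the controls, with at most 1 at 0 in a library. The 8 bone marrow stromal markers, which include all of these 6 but Lpl, went the other way. They summed in SMCs to 458 and 508 CPM in the mutant libraries and 757 and 652 CPM in the controls. The part of either list was not tested. In dpMSCs Chrdl1 fell modestly, 682 and 695 against 926 and 894 CPM (-0.36 ± 0.048, adjusted p = 5.1e-04), and with Leiden clusters the value was -0.13, adjusted p = 0.12. In FBs it was 5.32 and 8.75 against 29.8 and 14.5 CPM (-1.53 ± 0.51, adjusted p = 0.25), lower in both mutant libraries and not called.

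**Figure D3:**
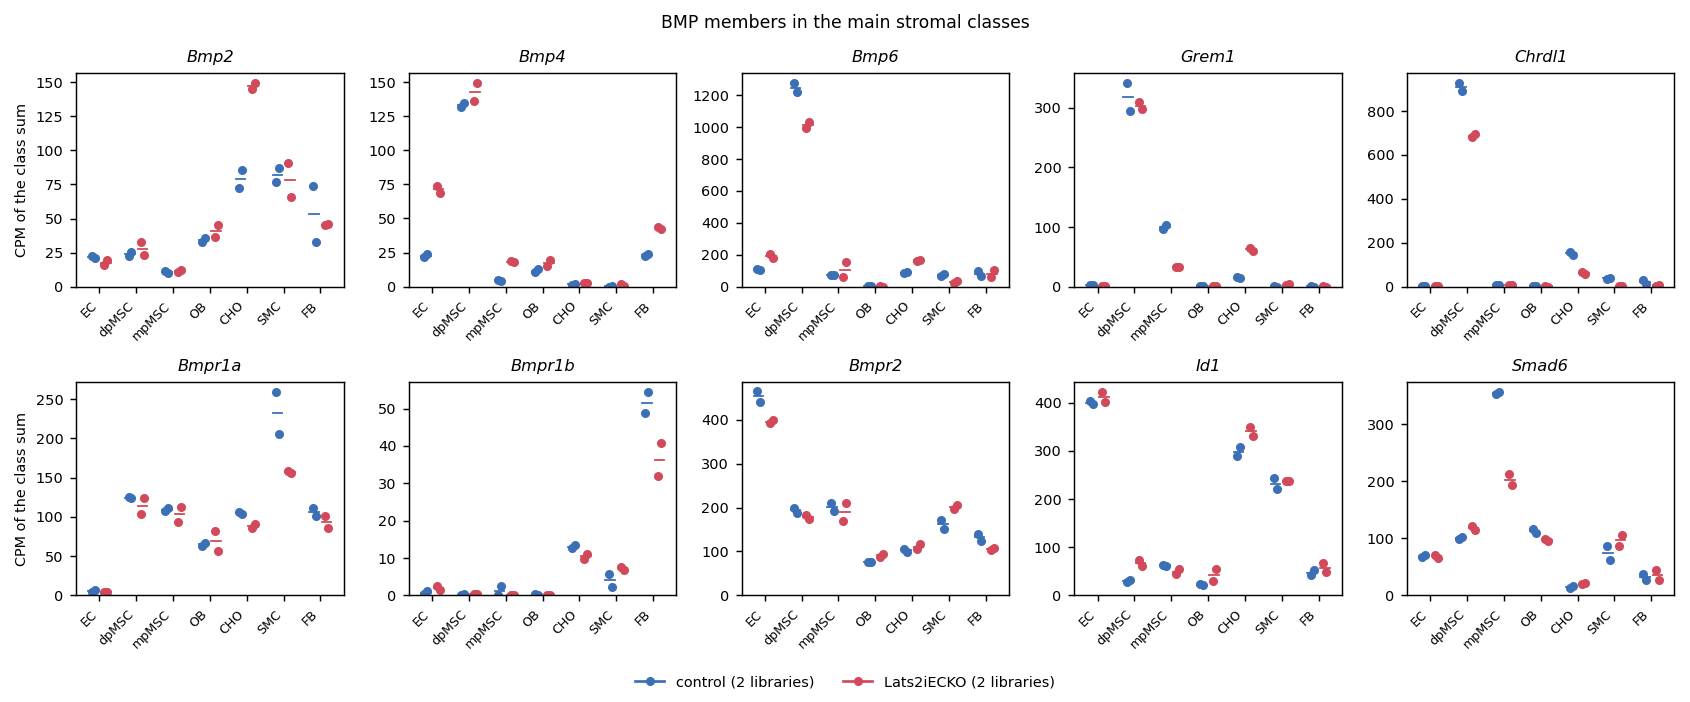
Level in CPM of the class sum (linear axis from 0, 1 panel per gene) of the 10 members in the 7 main classes, with 1 point per library and a line at the mean of each genotype. Chrdl1 in SMCs lies at 4.46 and 2.92 CPM in mutants and 34.5 and 40.5 in controls.

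The receptor genes are Bmpr1a (ENSMUSG00000021796, minus strand of chromosome 14, 34132687 to 34225379), Bmpr1b (ENSMUSG00000052430, minus strand of chromosome 3, 141542897 to 141875323) and Bmpr2 (ENSMUSG00000067336, plus strand of chromosome 1, 59802544 to 59918173). Bmpr1a and Bmpr1b encode type I receptors and Bmpr2 the type II receptor that phosphorylates them. Control levels of Bmpr1a and Bmpr2 were opposite between ECs and the other classes: Bmpr1a was highest in SMCs (232 ± 37.9 CPM) and lowest in aECs (3.97 ± 2.48), bmECs (5.89 ± 3.96) and mpECs (6.68 ± 2.44). Bmpr2 was highest in exactly those EC classes, at 499.7 ± 11.0 CPM in aECs, 453 ± 49.6 in mpECs and 422 ± 15.5 in bmECs, the last 2 overlapping. Among the 11 disjoint classes Bmpr1b was highest in RCHOs (76.2 ± 0.876) and FBs (51.6 ± 3.93), with every other one under 5 CPM on average. Barcodes assigned to no class held it at 29.8 and 31.1 CPM in the mutant libraries and 31.6 and 36.0 CPM in the controls. These were 239 and 301 UMIs against 275.5 and 330. The 7 main classes together held 346 and 411 Bmpr1b UMIs in the mutant libraries and 314 and 351 in the controls.

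In ECs Bmpr2, mutated in familial pulmonary arterial hypertension, was at 392 and 399 CPM in the mutant libraries and 466 and 439 CPM in the controls, lower in both mutant libraries but not called (log2 fold change -0.11 ± 0.069 SE, adjusted p = 0.23). In CHOs Bmpr1a was 85.8 and 90.4 against 106 and 104 CPM, a small fall without overlap (-0.21 ± 0.044, adjusted p = 0.0028), mirrored in HCHOs at 74.9 and 79.3 against 106 and 102 CPM (-0.37 ± 0.059, adjusted p = 6.3e-04). Bmpr2 in CHOs was called (0.17 ± 0.056, adjusted p = 0.034) although the libraries overlapped, at 105 and 118 against 105 and 99.5 CPM, and the call was lost without mutant library 2 (0.083, adjusted p = 0.33) or control library 2 (0.13, adjusted p = 0.12). In HCHOs it was 106 and 125 against 100 and 95.1 CPM (0.30 ± 0.079, adjusted p = 0.011), lost without mutant library 2 (0.18, adjusted p = 0.095).

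Bmpr1b, a receptor required for digit cartilage, moved in opposite directions by subclass. In RCHOs it was at 33.8 and 36.2 CPM in the mutant libraries and 76.8 and 75.6 CPM in the controls, with no overlap (log2 fold change -1.07 ± 0.092 SE, adjusted p = 1.2e-04), and was called without any 1 library. In HCHOs it was 1.65 and 1.68 against 0.441 and 0.882 CPM (1.35 ± 0.42, adjusted p = 0.025), on 23.3 and 23.3 UMIs in the mutant libraries and 4 and 8 in the controls, and that call was lost without control library 1 (0.92, adjusted p = 0.21), mutant library 1 (1.37, adjusted p = 0.090) or mutant library 2 (1.34, adjusted p = 0.094). Over all CHOs the sum was 9.81 and 11.1 against 12.7 and 13.4 CPM (-0.28 ± 0.097, adjusted p = 0.037), a call lost without mutant library 1 (-0.19, adjusted p = 0.20) or control library 2 (-0.24, adjusted p = 0.13). It was also lost with DESeq2 (adjusted p = 0.25), without the low-count filter, with a stricter gate and with Leiden clusters (-0.028, adjusted p = 0.84). In 4 of the 7 main classes Bmpr1b was too low to test.

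In SMCs, the class with the highest Bmpr1a, the gene was at 159 and 156 CPM in the mutant libraries and 259 and 206 CPM in the controls (log2 fold change -0.52 ± 0.11 SE, adjusted p = 0.0029). Bmpr2 moved the other way there, 196 and 205 against 172 and 152 CPM (0.35 ± 0.096, adjusted p = 0.016). Neither pair of groups overlapped, and both calls were lost without mutant library 1 (-0.53, adjusted p = 0.24 for Bmpr1a and 0.39, adjusted p = 0.18 for Bmpr2) or 2 (-0.50, adjusted p = 0.26 and 0.32, adjusted p = 0.22), fits in which no gene of the class was called. The call of Bmpr2 was also lost without control library 2 (0.28, adjusted p = 0.11). The fall of the SMC markers themselves stands beside these values.

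The readout genes are Id1 (ENSMUSG00000042745, plus strand of chromosome 2, 152566218 to 152579544) and Smad6 (ENSMUSG00000036867, minus strand of chromosome 9, 63860341 to 63929793). Id1 encodes a helix-loop-helix protein that blocks differentiation factors and is a direct SMAD1 and SMAD5 target. Its control level was highest in aECs (658 ± 20.3 CPM), then mpECs (413 ± 4.27) and HCHOs (321 ± 5.13), and lowest in dpMSCs (30.4 ± 2.11) and OBs (22.4 ± 1.14). In dpMSCs Id1 was at 72.7 and 60.6 CPM in the mutant libraries and 28.9 and 31.9 CPM in the controls, with both mutant libraries above both controls, and rose (log2 fold change 1.16 ± 0.11 SE, adjusted p = 4.8e-05), a call made in each of the 14 settings run. In near-empty droplets Id1 stood at 284 and 268 CPM in the mutant libraries and 151 and 149 CPM in the controls, above its level in dpMSCs. With free RNA subtracted the dpMSC value was 1.30, adjusted p = 8.2e-05. The 6 HCHO markers in dpMSCs summed to 625 and 310.4 CPM in the mutant libraries and 262 and 260 CPM in the controls, with none at 0. Their part in the Id1 rise was not tested. In OBs it was 29.0 and 54.5 against 23.2 and 21.6 CPM (0.96 ± 0.19, adjusted p = 0.0085), where mutant library 2 carried the higher value. Without that library the OB call was lost (0.36, adjusted p = 0.48), as it was with DESeq2 (adjusted p = 0.059) and with Leiden clusters (0.49, adjusted p = 0.24).

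In CHOs Id1 was 350 and 332 against 289.9 and 308 CPM, a small rise without overlap (0.24 ± 0.051, adjusted p = 0.0033), called in RCHOs at 318 and 348 against 240 and 267 CPM (0.44 ± 0.081, adjusted p = 0.0086) in every leave-one-out fit. In CCHOs (346 and 287 against 236 and 278 CPM; 0.39 ± 0.12, adjusted p = 0.048) the call was lost without control library 1 (0.25, adjusted p = 0.33) or mutant library 1 (0.24, adjusted p = 0.31). The HCHO value (358 and 332 against 317 and 324 CPM; 0.17 ± 0.057, adjusted p = 0.038) was lost without control library 1 (0.12, adjusted p = 0.13) or mutant library 1 (0.11, adjusted p = 0.28).

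In ECs, where the Bmp4 and Bmp6 genes rose, Id1 overlapped between genotypes at 423 and 401 against 403 and 398 CPM (0.12 ± 0.068, adjusted p = 0.20). By subclass it was 776 and 733 against 673 and 644 CPM in aECs (0.29 ± 0.085, adjusted p = 0.032), 309.6 and 271 against 195 and 235 CPM in bmECs (0.49 ± 0.14, adjusted p = 0.038) and, lower in mutants, 355 and 326 against 410.3 and 416 CPM in mpECs (-0.20 ± 0.098, adjusted p = 0.17). The aEC call was lost without mutant library 1 (0.25, adjusted p = 0.19) or control library 2 (0.25, adjusted p = 0.15), and the bmEC call without mutant library 1 (0.38, adjusted p = 0.11) or control library 1 (0.35, adjusted p = 0.31). Both were lost with DESeq2 and the relaxed barcode filter, and the bmEC call with Leiden clusters (0.43, adjusted p = 0.16) and with free RNA subtracted (0.47, adjusted p = 0.057). The pooled EC value of Id1 also carries the shifts in aEC and bmEC share given above, whose part was not tested. SMCs overlapped at 237 and 239 against 243 and 221 CPM and mpMSCs, 43.7 and 54.5 against 63.8 and 61.9 CPM, were not called (-0.30 ± 0.19, adjusted p = 0.43).

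Smad6, an inhibitory SMAD that is induced by BMP signalling and blocks the type I receptors, was highest in control mpMSCs (356 ± 2.56 CPM), above aECs (127 ± 26.4) and OBs (113 ± 4.02), which overlapped. In mpMSCs Smad6 was at 212 and 194 CPM in the mutant libraries and 354 and 357 CPM in the controls, with no overlap, and fell (log2 fold change -0.76 ± 0.12 SE, adjusted p = 4.9e-04), a call that held without any 1 library and was lost without the low-count filter (adjusted p = 0.065). As given above, 9 genes were called higher and 9 lower in mpMSCs without that filter. The summed mpMSC markers in this class were 4422 and 4232 CPM in the mutant libraries and 7089 and 7039 CPM in the controls. So the class's own markers fell beside Smad6, and their part was not tested. In CHOs Smad6 rose from a low level, 19.6 and 22.1 against 13.9 and 16.6 CPM (0.50 ± 0.098, adjusted p = 0.0018), in HCHOs at 11.6 and 13.8 against 6.95 and 7.38 CPM (0.88 ± 0.15, adjusted p = 0.0012). CCHOs had 19.6 and 27.3 against 8.97 and 15.4 CPM (1.04 ± 0.28, adjusted p = 0.031), lost without mutant library 1 (1.24, adjusted p = 0.055), mutant library 2 (0.77, adjusted p = 0.26) or control library 1 (0.68, adjusted p = 0.16). RCHOs were at 38.7 and 42.7 against 48.3 and 48.2 CPM (-0.20 ± 0.10, adjusted p = 0.30). In dpMSCs Smad6 was 122 and 115 against 99.3 and 102 CPM (0.27 ± 0.066, adjusted p = 0.015), lost without mutant library 1 (0.22, adjusted p = 0.080) or control library 1 (0.25, adjusted p = 0.099). In ECs the libraries overlapped at 70.9 and 66.3 against 67.0 and 70.2 CPM (0.079 ± 0.08, adjusted p = 0.48).

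The 8 other readout genes of the pathway list (Id2, Id3, Id4, Msx1, Msx2, Dlx5, Atoh8 and Tmem100) did not all move with Id1. In dpMSCs 4 rose and 1 fell among 7 tested (beside 20.3% of all genes called in either direction), and in mpMSCs 1 rose and 0 fell among 7 tested (7.59%). In ECs 2 rose and 1 fell among 7 tested (34.4%), and in CHOs 6 rose and 1 fell among 8 tested (45.1%). Chosen after their values were seen, Id3 in dpMSCs was 1024 and 975 against 801 and 792 CPM (0.37 ± 0.05, adjusted p = 6.1e-04), and Id2 was 62.6 and 60.3 against 32.5 and 30.8 CPM (0.99 ± 0.085, adjusted p = 3.0e-05). In ECs, Id3 was 753 and 693 against 913 and 957 CPM (-0.29 ± 0.066, adjusted p = 0.0069).

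**Figure D4:**
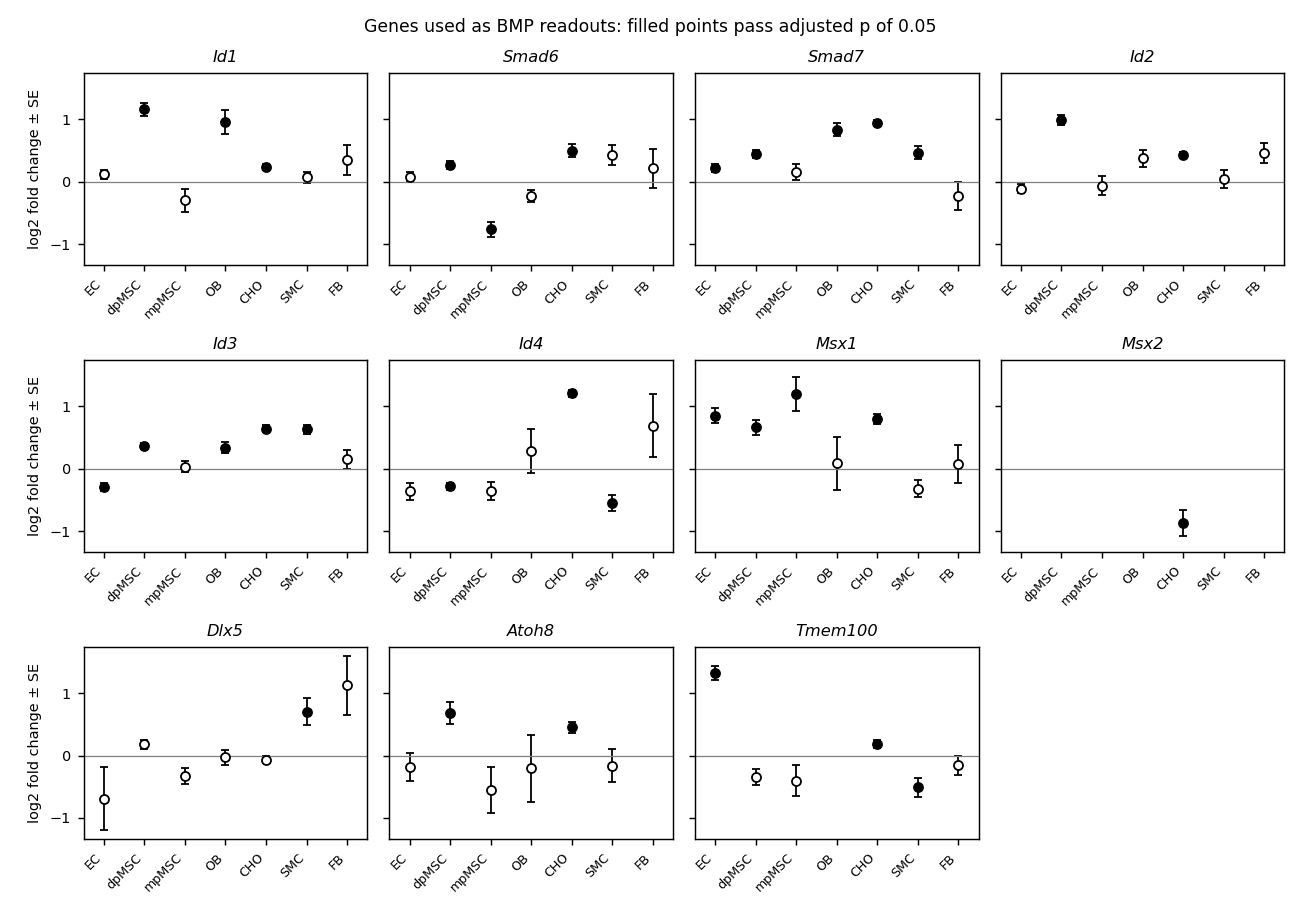
Log2 fold change (Lats2iECKO over control, bars are the SE) of Id1, Smad6, Smad7 and the 8 other readout genes in the 7 main classes, where tested; filled points pass an adjusted p of 0.05. Id1 lies at 1.16 in dpMSCs and 0.12 in ECs, and Smad6 at -0.76 in mpMSCs.

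Grem1 and Smad6 fell together in mpMSCs, and their RefSeq promoters on GRCm38.p6 (chr2:113758599-113758898, minus strand, and chr9:64022010-64022309, minus strand) are printed with matches to GTCT, AGAC or GGCGCC in capitals.
Grem1: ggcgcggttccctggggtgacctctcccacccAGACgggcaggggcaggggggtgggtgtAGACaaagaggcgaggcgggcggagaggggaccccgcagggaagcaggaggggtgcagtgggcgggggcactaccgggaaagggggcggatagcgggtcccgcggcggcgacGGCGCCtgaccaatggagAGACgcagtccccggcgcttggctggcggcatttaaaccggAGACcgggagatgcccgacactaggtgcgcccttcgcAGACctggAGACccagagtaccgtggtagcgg
Smad6: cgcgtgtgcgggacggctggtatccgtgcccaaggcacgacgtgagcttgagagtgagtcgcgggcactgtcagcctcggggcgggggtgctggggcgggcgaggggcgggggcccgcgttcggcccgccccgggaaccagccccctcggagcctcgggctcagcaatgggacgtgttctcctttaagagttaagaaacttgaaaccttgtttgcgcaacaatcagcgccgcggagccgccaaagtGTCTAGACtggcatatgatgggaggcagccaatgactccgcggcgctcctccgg
Grem1 holds 6 matches to the half-site and 1 to GGCGCC, and Smad6 holds 2 matches to the half-site. The 2 matches in Smad6 meet in the 8-letter palindrome GTCTAGAC, which is in 0.213% of the 32851 promoters (70 in all) and, among the members' windows, in that of Smad6. This string was looked up after the sequence was seen. The half-site was in the windows of 6 of the 7 matched members, near the share in all promoters.

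Over the 6 subclasses, 47 of the 60 pairs of a member and a subclass were tested and 25 called, 20 higher and 5 lower in mutants. The EC subclasses had 2 of 6 tested members called in aECs (beside 13.6% of all genes), 3 of 7 in bmECs (13.5%) and 2 of 6 in mpECs (23.4%). Among chondrocytes it was 8 of 9 in HCHOs (43.0%), 6 of 9 in CCHOs (12.9%) and 4 of 10 in RCHOs (6.85%). Subclasses share their cells with the parent class and are not further evidence for it. HCHOs held the most calls, with Bmp2, Bmp6, Bmpr1b, Bmpr2, Id1 and Smad6 higher and Chrdl1 and Bmpr1a lower. All 4 RCHO calls were lost with the relaxed barcode filter (adjusted p from 0.074 to 0.20), under which 1 of 13679 genes tested was called there, and 4 of the 6 CCHO calls (Bmp2, Bmp6, Id1 and Smad6) with a stricter gate.

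Among the ligands and antagonists, the class that supplied most UMIs changed with genotype for Bmp6 and Grem1, and was the same in both genotypes for Bmp2 (CHO), Bmp4 and Chrdl1 (dpMSC). It also changed for Bmpr2, from ECs to CHOs, and for Smad6, from OBs to CHOs. Of the Bmp4 UMIs over the 7 main classes, dpMSCs gave 48.3% and 52.3% in the mutant libraries and 83.8% and 81.7% in the controls, and ECs gave 37.1% and 33.4% against 6.75% and 7.03%. For Bmp6, dpMSCs gave 36.9% and 40.2% against 84.4% and 82.5%, and CHOs 50.6% and 47.1% against 9.60% and 11.8%. For Grem1, dpMSCs gave 35.8% and 39.7% against 86.6% and 84.7%, and CHOs 63.1% and 58.8% against 7.07% and 7.59%. These shares follow the number of cells captured as well as the level per cell: mutant libraries held 543 and 668 dpMSCs against 1822 and 1753, and 2136 and 2303 CHOs against 1442 and 1496. Cell recovery and abundance in the bone cannot be told apart here.

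**Figure D5:**
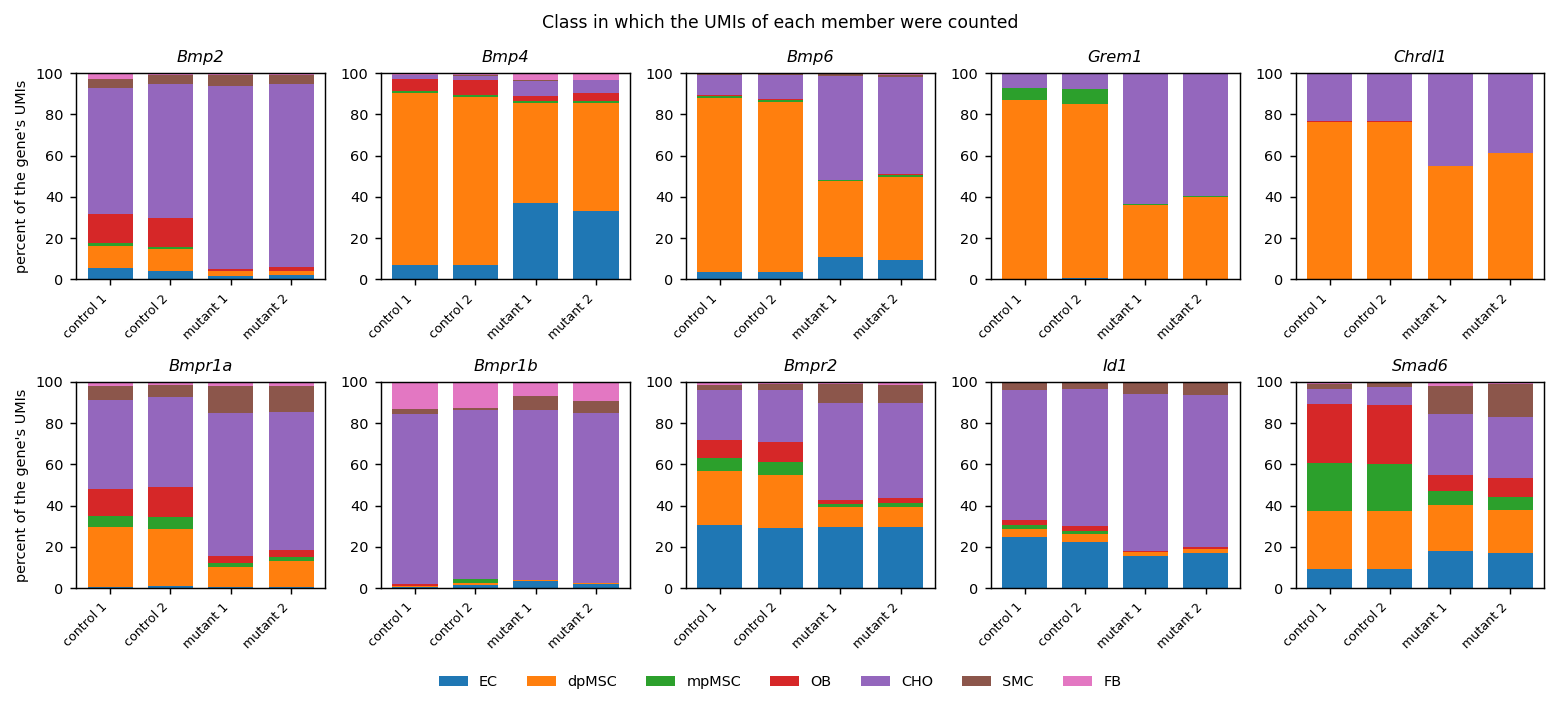
Share of each member's UMIs (percent of the UMIs over the 7 main classes) contributed by each class, as 1 stacked bar per library and 1 panel per gene. The dpMSC share of Grem1 is 86.6% and 84.7% in controls and 35.8% and 39.7% in mutants.

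Whether a gene's genotype effect differed between classes was tested in 1 fit of all 7 main classes with the library as a block, as each class's effect minus the mean effect in the others. That mean weights the other classes equally, also those where a member was too low to test alone. Of 70 such contrasts of members, 14 were called. As background, 11.5% of all genes differed in ECs, 2.21% in dpMSCs, 0.882% in mpMSCs, 2.9% in OBs, 13.6% in CHOs, 11.0% in SMCs and 0.635% in FBs. The effect on Bmp6 was above that of the other classes in ECs (1.13 ± 0.24 SE, adjusted p = 0.0019) and in CHOs (1.24 ± 0.22 SE, adjusted p = 3.7e-04). For Bmp2 it was above in CHOs (0.96 ± 0.15 SE, adjusted p = 6.1e-05), for Id1 in dpMSCs (0.92 ± 0.16 SE, adjusted p = 0.0016), and for Smad6 it was below in mpMSCs (-1.02 ± 0.14 SE, adjusted p = 2.6e-04). The effect on Bmp4 in ECs was not called in this test (0.77 ± 0.38 SE, adjusted p = 0.23). The mean it was set against includes SMCs, with 6 and 1 Bmp4 UMIs in the mutant libraries and 0 and 1 in the controls. The contrast of Bmp4 in SMCs had an SE of 1.32, and the part of these counts in the EC contrast was not tested. The effect on Bmp4 in dpMSCs was below that of the others (-1.09 ± 0.22 SE, adjusted p = 0.0064), a call lost without control library 1 or mutant library 1.

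A wider list of 47 BMP pathway genes (11 other ligands, 12 antagonists, 9 receptors and co-receptors, 7 SMADs and ubiquitin ligases and 8 readouts) was counted the same way, with the share of all genes called in either direction in brackets. In ECs 7 rose and 8 fell among 28 tested (34.4%), in dpMSCs 10 rose and 6 fell among 37 tested (20.3%), in mpMSCs 3 rose and 2 fell among 33 tested (7.59%), and in OBs 4 rose and 0 fell among 33 tested (4.41%). In CHOs 18 rose and 10 fell among 41 tested (45.1%), in SMCs 10 rose and 6 fell among 31 tested (29.4%), and in FBs 1 rose and 1 fell among 30 tested (0.675%). Median log2 fold changes of the list ran from -0.13 in ECs to 0.17 in OBs, beside medians of all genes within 0.01 of 0. In CHOs, among 7 ligands tested 1 rose and 5 fell, and among 10 antagonists tested 7 rose and 0 fell, beside 22.8% of all genes higher and 22.3% lower. This list leaves out the 10 members. Of the 3 member ligands tested in CHOs 2 rose and 0 fell, and of the 2 member antagonists 1 rose and 1 fell. The difference between ligands and antagonists was not tested.

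The pathway genes with the largest called changes included further antagonists in chondrocytes. Chrdl2, a second chordin-like antagonist, was 39.1 and 39.3 against 8.69 and 8.0 CPM in CHOs (2.28 ± 0.072, adjusted p = 3.3e-09) and 145 and 131 against 51.1 and 42.7 CPM in RCHOs (1.61 ± 0.10, adjusted p = 2.4e-05). Sost, which encodes sclerostin, an osteocyte inhibitor of WNT that also binds BMPs, was read in HCHOs with 196 and 246 UMIs in mutants and 0 in both controls, at least 95.2-fold higher against a floor of 3 counts over the group. The 8 OB markers in HCHOs summed to 1071 and 1169 CPM in the mutant libraries and 2118 and 2133 CPM in the controls, and their part in the Sost counts was not tested. Fstl3, a follistatin-type inhibitor, was 14.6 and 14.3 against 3.09 and 3.64 CPM in HCHOs (2.16 ± 0.17, adjusted p = 3.4e-06), and the ligand Gdf6, a joint and cartilage factor, was 1.79 and 3.56 against 10.3 and 24.1 CPM in RCHOs (-2.64 ± 0.41, adjusted p = 0.0033) and fell in CHOs as a whole (-1.87 ± 0.45, adjusted p = 0.0062). The ligand Gdf10 fell in RCHOs too (-0.77 ± 0.18, adjusted p = 0.026), Id4, Nbl1 and Bmper rose in CCHOs (1.55, 1.46 and 1.39), and Acvr2b rose in HCHOs at under 2 CPM (1.96 ± 0.48, adjusted p = 0.0082).

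In ECs Tmem100, an endothelial target of BMP9 and ALK1 signalling, was 56.2 and 48.0 against 21.2 and 22.6 CPM (1.33 ± 0.12, adjusted p = 2.2e-05), and in aECs 215 and 202 against 109 and 109 CPM (1.03 ± 0.14, adjusted p = 6.9e-05). The type II receptor Acvr2a fell in ECs, at 49.4 and 49.7 against 99.5 and 93.1 CPM (-0.88 ± 0.079, adjusted p = 2.5e-05), and in bmECs and mpECs (-0.73 and -1.07). In mpECs Id4 and the type I receptor Acvr1 fell (-1.01 and -0.59), and in aECs Msx1 rose and Smad5 fell (1.05 and -0.80). Bmp3, at under 2 CPM, fell in ECs (-2.16 ± 0.62, adjusted p = 0.022). Bmp8a, a ligand named in 4 classes, rose in dpMSCs at 28.9 and 31.7 against 4.46 and 4.79 CPM (2.75 ± 0.15, adjusted p = 2.2e-06), in mpMSCs (1.01), in bmECs (1.59) and in SMCs on few counts (3.08).

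In SMCs the co-receptor Eng (endoglin), which endothelial cells also express, rose, at 112 and 120.2 against 40.4 and 31.1 CPM (1.74 ± 0.15, adjusted p = 1.9e-06). The 6 bmEC markers in SMCs summed to 269 and 298 CPM in the mutant libraries and 52.1 and 39.1 CPM in the controls, with up to 3 at 0 in a library. The 8 EC markers overlapped there, at 29.6 and 27.5 CPM in the mutant libraries and 31.2 and 23.8 CPM in the controls. The aEC markers (151 and 131 against 219 and 246 CPM) and mpEC markers (130 and 131 against 138 and 140 CPM) were lower in mutants. The 8 hematopoietic markers summed to 151 and 134 CPM in the mutant libraries and 13.9 and 24.6 CPM in the controls, with up to 5 at 0. Over all SMCs pooled, 7 of these 8 were below 1 CPM. Their part in the Eng value was not tested. In mpMSCs the antagonist Fst and the target Msx1 rose (1.19 and 1.20). Among dpMSCs Chrdl2 and Fstl3 rose from about 2 CPM or less (3.22 and 1.65). OBs showed higher Smad7, the second inhibitory SMAD, at 89.1 and 88.3 against 48.8 and 49.5 CPM (0.84 ± 0.10, adjusted p = 1.9e-04), higher Smurf2 (0.46) and higher Sost (2.90). In FBs Fst rose at 75.8 and 106 against 11.9 and 15.7 CPM (2.80 ± 0.29, adjusted p = 0.0015) and Smurf2, a ubiquitin ligase for SMADs and their receptors, fell (-0.95 ± 0.17, adjusted p = 0.029).

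Genes with the most similar level across the 11 disjoint classes were ranked among 10018 genes by Pearson's r of mean log2(CPM + 1), over points that share the same 4 libraries. Bmpr2 had the closest neighbours, Numb (0.993) and Tspan9 (0.985) among them, followed by Bmpr1a with Cacna2d1 (0.981), Fxyd1 (0.979) and Vasn (0.977). Smad6 lay nearest to Id3 (0.917), another BMP target, with Tshz1 (0.916) and Adamts10 (0.880), and Bmp2 to Gdf5 (0.850), a joint ligand of the same family, with Phtf2 (0.781) and Ndufa4l2 (0.755). Id1 lay nearest to Rhbdf2 (0.942), Tspan13 (0.939) and Btg2 (0.936). The first neighbours of the rest were Pcdhga4 (0.895) for Bmp4, Cx3cl1 (0.901) for Bmp6, Fam189a1 (0.897) for Grem1, Arfgef2 (0.929) for Chrdl1 and Barx1 (0.952) for Bmpr1b. All 10 members kept their highest control class on both the CPM and the per-cell scale, and 8 had the same highest class in mutants.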

How the data were processed

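The members and gene lists were chosen with earlier results of these data known. Per the study's methods, the authors trimmed reads with cutadapt 3.5, aligned them with STARsolo 2.7.10a to GRCm39 (mm39 in the submitters' processing notes) with a GENCODE annotation extended by CreERT2 and reporter sequences, and counted UMIs over exons and introns. The deposited values are unfiltered expected counts per gene and barcode, in which reads of several genes are shared out by expectation maximization, so 9.09041% to 9.94766% of entries were not whole. Genes that overlap or share reads with a near-identical copy are uncertain for that reason.

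Barcodes with at least 1000 UMIs, at least 800 genes, under 15% mitochondrial and 5% hemoglobin counts and complexity above 0.8 were kept, and 5119 to 6813 remained per library. Classes were gated from markers, 8 per main list and 6 per subclass list, with at least 3 detected and a lead of 2 (1 for subclasses); this gate was set after counts of gated barcodes were seen and before genotypes were compared. No doublet caller was run, and the lead removes barcodes with markers of several lists. Barcodes assigned to no list are in no class sum. They made up 19% and 20.6% of the filtered barcodes in the mutant libraries and 12.9% and 13.4% in the controls. Between 8.32% (stromal) and 40.2% (FB) of a main class's barcodes lay near the gate, and 91.4% to 99.1% fell in a Leiden cluster of the same name. Subclass sizes differed more between gates and clusters: CCHOs numbered 146 to 253 per library by gate and 886 to 1008 by cluster, and control HCHOs 540 and 518 against 282 and 266. For mpMSCs the gap was wider in the mutant libraries (78 and 94 by gate, 416 and 488 by cluster) than in the controls (321 and 310 by gate, 540 and 565 by cluster). The names are rebuilt and may differ from the study's. Low-count genes were filtered with filterByExpr. Class sums were rounded and tested with edgeR 4.0.16 (R 4.3.3, quasi-likelihood, TMM), checked first on simulated counts. SE is the log2 fold change divided by the root of F. CPM are of the class sum. Alternatives were DESeq2 1.42.0, RLE scaling, no filter and a 20% of cells filter, leaving out each library, the replicate number as a block, barcode and gate settings, Leiden clusters and subtraction of free RNA. Python 3.11.15, scanpy 1.11.5 and matplotlib 3.10.9 were used. Same-numbered libraries did not deviate together (correlations of -0.14 to 0.0737 over classes), and the numbers were not used as pairs in the main fits. Counting noise in low-count genes can hide a pairing, so this check cannot exclude one. Named pathway genes were, per class, up to 3 with the largest called log2 fold change and no overlap of libraries, and neighbours in level the 3 genes with the highest r among those reaching 20 CPM in a class; some genes these rules pick are not reported here. Promoters came from RefSeq on GRCm38.p6; none was matched for Bmp2, Chrdl1 and Id1. Floors use 3 counts over the group and, like all counts here, cover counting error only.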

Additional observations from a re-analysis of the deposited data

Results flagged for a closer look

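Of 70 contrasts of 1 main class's genotype effect against the mean effect in the other 6, 14 passed, each as a test of the difference itself (edgeR, adjusted over all genes). Of the 10 members, Bmp6 and Grem1 passed in ECs (beside 11.5% of all genes), Bmp4, Chrdl1 and Id1 in dpMSCs (2.21%) and Smad6 in mpMSCs (0.882%). In CHOs Bmp2, Bmp6, Grem1 and Smad6 passed (13.6%), and in SMCs Bmp6, Grem1, Chrdl1 and Bmpr2 (11.0%). No member passed in OBs (2.9%) or FBs (0.635%). Values are differences of log2 fold changes with the SE, positive where the effect in the class lies above the others. The explanations of these differences were not tested. The mean weights the other 6 classes equally, those with few counts included. Grem1 in SMCs, too low to test alone, thus also enters the Grem1 contrasts of ECs and CHOs. Its part in their values and losses was not tested.

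Among the ligands, Bmp2 differed in CHOs (0.96 ± 0.15 SE, adjusted p = 6.1e-05). Bmp4 differed in dpMSCs, where its effect was below the others (-1.09 ± 0.22 SE, adjusted p = 0.0064). Bmp6 differed in ECs (1.13 ± 0.24 SE, adjusted p = 0.0019), in CHOs (1.24 ± 0.22 SE, adjusted p = 3.7e-04) and in SMCs (-1.42 ± 0.40 SE, adjusted p = 0.019).

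Among the antagonists, Grem1 differed in ECs (-2.15 ± 0.70 SE, adjusted p = 0.046), in CHOs (2.30 ± 0.64 SE, adjusted p = 0.015) and in SMCs (3.69 ± 1.12 SE, adjusted p = 0.031), the last on 7 and 17 UMIs in the mutant libraries and 1 and 0 in the controls. Chrdl1 differed in dpMSCs, where its effect lay above the mean of the other classes (0.92 ± 0.21 SE, adjusted p = 0.016), and in SMCs, where it lay below (-2.54 ± 0.40 SE, adjusted p = 5.9e-05).

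Of the receptors, Bmpr2 differed in SMCs (0.38 ± 0.10 SE, adjusted p = 0.014). The readout Id1 differed in dpMSCs (0.92 ± 0.16 SE, adjusted p = 0.0016), and Smad6 differed in mpMSCs (-1.02 ± 0.14 SE, adjusted p = 2.6e-04) and in CHOs (0.56 ± 0.13 SE, adjusted p = 0.0029).

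The contrasts of Bmp2 and Bmp6 in CHOs, Bmp6 in ECs, Chrdl1 in SMCs, Id1 in dpMSCs and Smad6 in mpMSCs stayed called when any 1 library was left out. The other 8 did not. Without control library 1, those of Grem1 in CHOs (0.81, adjusted p = 1), Grem1 in SMCs (7.07, adjusted p = 1), Bmp4 in dpMSCs (-0.91, adjusted p = 0.12), Chrdl1 in dpMSCs (0.82, adjusted p = 0.15), Bmpr2 in SMCs (0.44, adjusted p = 0.090) and Smad6 in CHOs (0.34, adjusted p = 0.32) were lost. Without control library 2, those of Bmp6 in SMCs (-1.20, adjusted p = 0.10), Grem1 in ECs (-1.74, adjusted p = 0.18), Grem1 in SMCs (2.92, adjusted p = 0.17), Chrdl1 in dpMSCs (0.96, adjusted p = 0.053) and Bmpr2 in SMCs (0.35, adjusted p = 0.22) were lost. Leaving out mutant library 1 lost Bmp4 in dpMSCs (-0.76, adjusted p = 0.57) and Grem1 in ECs (-1.40, adjusted p = 1), and leaving out mutant library 2 lost Grem1 in ECs (-2.16, adjusted p = 0.14), Grem1 in SMCs (2.75, adjusted p = 0.30), Chrdl1 in dpMSCs (0.93, adjusted p = 0.086) and Smad6 in CHOs (0.41, adjusted p = 0.084).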

How the results depend on the processing

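Of the 49 calls of members, 19 were called in every setting run and 0 changed direction. Counts of called members left their main value by over 1.5 times in these settings. With Leiden clusters, dpMSC went from 4 to 2, mpMSC from 3 to 6 and OB from 1 to 0. Without the low-count filter mpMSC went to 0, and with DESeq2 OB went to 0. Calls over all genes in mpMSCs moved too, from 538 higher and 314 lower to 2289 and 1910 with Leiden clusters. Without the low-count filter they fell to 9 and 9. In dpMSCs they went from 1712 and 1455 to 1419 and 1205 with Leiden clusters. In OBs they went from 428 and 110 to 391 and 106 with Leiden clusters, and to 195 and 33 with DESeq2. Among the subclasses, CCHO went from 6 to 0 without the low-count filter, where calls over all genes there fell from 968 higher and 596 lower to 186 and 121, to 3 with DESeq2, to 2 with the stricter gate and to 1 without mutant library 1. RCHO went from 4 to 0 with the relaxed barcode filter, and HCHO from 8 to 5 without the low-count filter. In aECs the count went from 2 to 0 with DESeq2 and to 1 with the 20% of cells filter, either barcode filter or any 1 library left out. The cause was not tested. Leaving out each library in turn gave 2 in ECs throughout, 3 to 5 in dpMSCs, 2 to 4 in mpMSCs, 0 to 1 in OBs (0 without mutant library 2), 8 to 9 in CHOs, 0 to 5 in SMCs (0 without either mutant library) and 0 in FBs, 16 to 26 over the subclasses (16 without mutant library 1, against 25) and 8 to 16 of the between-class contrasts (8 and 9 without control library 1 and 2, against 14). With DESeq2 the calls lost were Grem1 in ECs, Smad6 in dpMSCs, Id1 in OBs, Bmpr1b and Bmpr2 in CHOs, Bmpr2 in SMCs, Bmp4 and Id1 in aECs, Id1 in bmECs, Bmpr1b and Id1 in HCHOs and Grem1, Id1 and Smad6 in CCHOs, and Bmp4 in mpMSCs had no adjusted p. Without the low-count filter they were Smad6 in dpMSCs, Bmp4, Grem1 and Smad6 in mpMSCs, Bmpr1b and Bmpr2 in CHOs, Bmpr1b, Bmpr2 and Id1 in HCHOs and Bmp2, Bmp6, Grem1, Chrdl1, Id1 and Smad6 in CCHOs. With Leiden clusters they were Bmp6, Chrdl1 and Smad6 in dpMSCs, Id1 in OBs, Bmpr1b in CHOs, Bmp4 in aECs, Id1 in bmECs and Bmpr1b and Bmpr2 in HCHOs. With the stricter gate they were Bmpr1b in CHOs, Id1 in HCHOs and Bmp2, Bmp6, Id1 and Smad6 in CCHOs, with the relaxed barcode filter Id1 in aECs, Id1 in bmECs, Id1 in HCHOs and Bmp6, Grem1, Bmpr1b and Id1 in RCHOs, with the stricter one Bmpr2 in SMCs and Id1 in aECs, and with free RNA subtracted Bmpr2 in CHOs, Id1 in bmECs, Id1 in HCHOs and Id1 in CCHOs. With the replicate block the counts were 3 in ECs, 4 in dpMSCs, 4 in mpMSCs, 1 in OBs, 10 in CHOs, 4 in SMCs, 0 in FBs and 24 over the subclasses, and 48 of the 49 calls were made again, Id1 in HCHOs being lost (0.17, adjusted p = 0.081). The crossed pairing, added after the mpEC correlation of -0.14 was seen, gave 26 subclass calls, including all 25. With 2 libraries a group, low-count members such as Bmpr1b in stromal cells stayed untested. All 10 members kept their highest control class under both scalings.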
